A study of Mus musculus with 6 samples.

Results

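The genes described here are 10 transcripts used as markers of infiltrating and activated myeloid cells in mouse tissue: Chil3, Cd14, Cd68, Lyz2, Ccr2, Itgam, Msr1, Tyrobp, Fcer1g and Plac8. They were chosen by name, as 10 of the 56747 genes of the deposited table, when the tacrolimus against saline values of these libraries were already known. Their differences between the groups are therefore given as descriptions, with no test. Whole-kidney RNA came from wild-type male C57BL/6J mice after 30 min of bilateral renal ischemia and 24 h of reperfusion, with 3 libraries per group. One group had been given 1 mg/kg/day of tacrolimus by mouth for 1 day before ischemia, and the other oral saline. The drug is named as in the labels of the libraries and the design text, whereas the series title names another drug, zafirlukast. All 6 libraries come from injured kidneys, and age is not given. The ischemia is called partial in the description of the saline group and an occlusion of the renal arteries in that of the tacrolimus group, so surgery and drug cannot be told apart. Each group had 6 animals. The labels give 1 batch and do not tie the libraries to separate animals, so the spread described is that between these libraries and may be technical. The kidney portion for sequencing was homogenized in buffered saline and its supernatant kept.

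Monocytes and neutrophils enter the kidney from the blood after ischemia, while another population of macrophages lives in the tissue. Monocytes leave the marrow through the chemokine receptor CCR2, adhere through integrins such as CD11b, and change their transcripts as they become macrophages. Receptors of these cells signal through small adaptor proteins with an immune tyrosine activation motif (ITAM), of which Tyrobp and Fcer1g are the main ones in myeloid cells. Tacrolimus binds FKBP12 and thereby inhibits calcineurin, the phosphatase that activates NFAT transcription factors. Several of the 10 genes are not exclusive to macrophages: Chil3, Cd14, Itgam and Plac8 are also made by neutrophils or their precursors in the mouse, and Cd14 and Cd68 transcripts can come from other kidney cells. In whole tissue, fewer cells of a type and less RNA per cell cannot be told apart.

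The 10 genes did not move together. Chil3, Cd14 and Cd68 had lower levels in all 3 tacrolimus libraries than in all 3 saline libraries, whereas the other 7 overlapped between the groups. Of the 7, Tyrobp, Fcer1g, Lyz2 and Itgam had the higher group level with tacrolimus, and Ccr2, Msr1 and Plac8 differed by at most 0.14 on the log2 scale. All 10 passed the filter on low counts. Chil3, Cd14 and Cd68 were at least 2-fold lower with tacrolimus, as were 4.19% of all genes tested. The groups did not overlap, counted in either direction, for 3 of the 10 members and for 21.8% of all genes tested, and the choice of members bears on their count. With edgeR's quasi-likelihood test, 0 of the 10 had an adjusted p under 0.05 and 3 an unadjusted p under 0.05. Over all 17557 genes tested, 0.0114% had an adjusted p under 0.05 and 12.7% an unadjusted p under 0.05. DESeq2 called 2 of the 10 lower, and 1.96% of all genes (1.33% lower), and limma on FPKM called 0 members. These counts rest on the values by which the members were chosen, so nothing is read from them. Of the 10, 6 had the lower group level with tacrolimus, as had 50.7% of all genes tested. The median log2 fold change was -0.03 over the members and -0.01 over all genes tested.

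Library totals lay between 38443534 and 44476844 counts. Saline replicate 1 stood apart from the other saline libraries. Over all tested genes it differed by a root mean square of 0.867 and 1.04 (log2) from saline replicates 2 and 3, but by only 0.592 to 0.612 from the tacrolimus group. Transcripts of injured tubule were also lower in it, with Havcr1, which encodes KIM-1, at 267 CPM (counts per 1000000, TMM-scaled) against 1598 and 1080.2 CPM in saline replicates 2 and 3. For this reason each gene is described library by library. Without saline replicate 1, a library left out after its values had been seen, edgeR called 14.0% of all genes (6.16% lower and 7.85% higher). Among the 10 members 3 were called lower and 1 higher there, and nothing is read from these counts either.

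**Figure D1:**
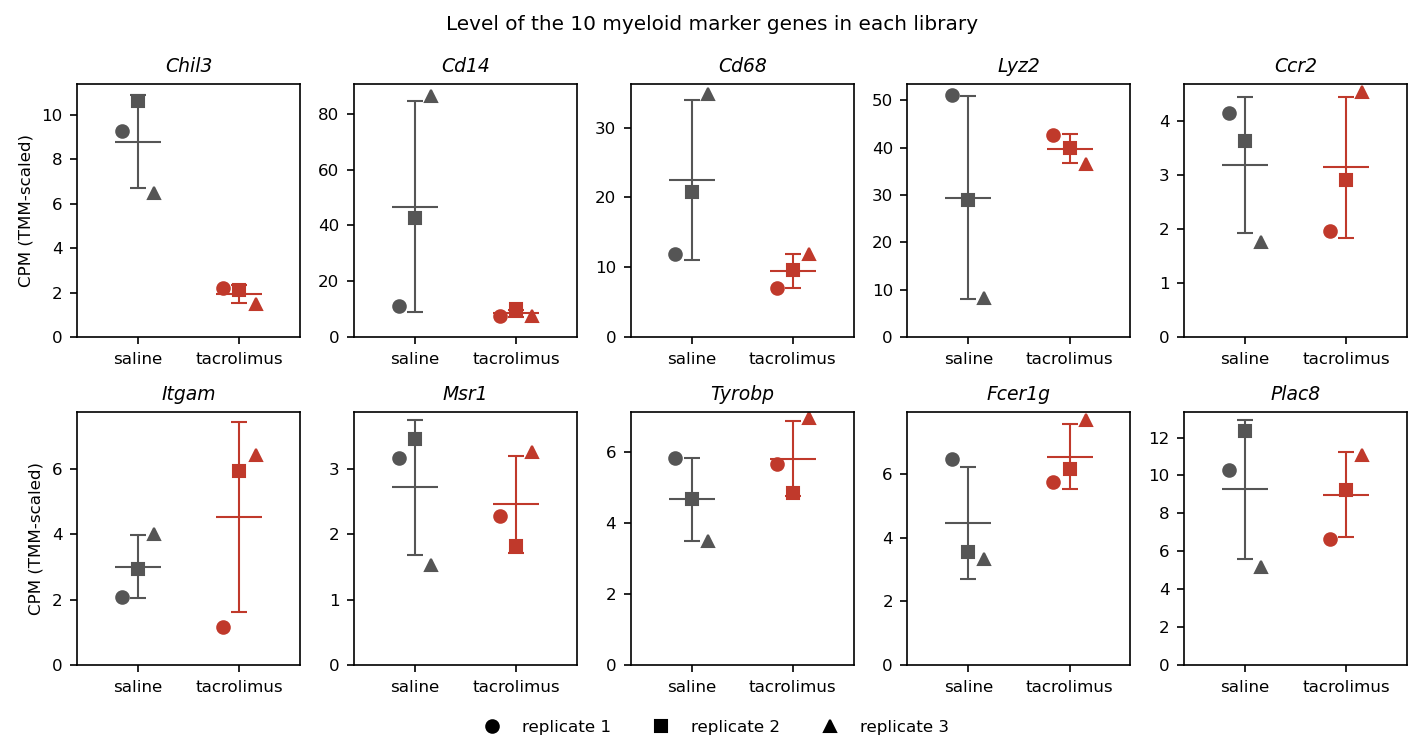
Level of each of the 10 genes in the 6 libraries, in TMM-scaled CPM on a linear axis from 0. Symbols mark the replicate, and horizontal lines with bars mark the mean and SD of 3 libraries. Chil3 is at 6.49 to 10.6 CPM with saline and 1.49 to 2.21 CPM with tacrolimus, while Cd14 and Cd68 are highest in saline replicate 3.

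Chil3, also known as Ym1, is a secreted chitinase-like protein of alternatively activated mouse macrophages that binds sugars but lacks chitinase activity. It stood at 9.27, 10.6 and 6.49 CPM in saline replicates 1 to 3 and at 2.21, 2.11 and 1.49 CPM in tacrolimus replicates 1 to 3. The counts behind these values were 383, 418 and 272 with saline and 94, 89 and 63 with tacrolimus. The groups did not overlap, and saline replicate 1 stood between the other saline libraries, unlike its place for Cd14 and Cd68. The means were 8.79 ± 2.10 CPM with saline and 1.94 ± 0.389 CPM with tacrolimus (SD, n = 3 each). The log2 fold change was -2.18 ± 0.28 (SE), a level 4.53-fold higher with saline. It was -2.36 to -2.02 when any 1 library was left out. The gene (ENSMUSG00000040809) lies on the minus strand of chromosome 3 of GRCm39, from 106054870 to 106074880.

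Chil3 has a close neighbor and paralogue, Chil4 (Ym2). Their coding sequences in GENCODE M21 were 95.3% identical over 1197 aligned bases, with a longest shared run of 136 bases, so the split of reads between the genes depends on the authors' counting. Chil4 held almost no reads: it stood at 0.0484 CPM in saline replicate 1, at 0.119 CPM in tacrolimus replicate 2, and at 0 counts in the other 4 libraries. The promoters of the pair, from RefSeq on GRCm38.p6, are shown because the genes are alike in sequence there too, yet nearly all counts were assigned to Chil3. Each runs from 250 bases before to 50 bases after the annotated start, on the minus strand, at chr3:106167515-106167814 for Chil3 and chr3:106219430-106219729 for Chil4. Capitals mark bases that differ or have no partner in the alignment of the pair, and over 271 aligned bases the identity was 92.6%.
Chil3: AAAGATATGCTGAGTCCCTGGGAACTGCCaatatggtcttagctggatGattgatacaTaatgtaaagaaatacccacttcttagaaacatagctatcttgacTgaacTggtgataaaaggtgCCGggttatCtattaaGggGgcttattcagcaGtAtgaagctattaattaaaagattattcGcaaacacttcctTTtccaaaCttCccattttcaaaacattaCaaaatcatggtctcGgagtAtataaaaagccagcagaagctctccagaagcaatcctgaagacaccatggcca
Chil4: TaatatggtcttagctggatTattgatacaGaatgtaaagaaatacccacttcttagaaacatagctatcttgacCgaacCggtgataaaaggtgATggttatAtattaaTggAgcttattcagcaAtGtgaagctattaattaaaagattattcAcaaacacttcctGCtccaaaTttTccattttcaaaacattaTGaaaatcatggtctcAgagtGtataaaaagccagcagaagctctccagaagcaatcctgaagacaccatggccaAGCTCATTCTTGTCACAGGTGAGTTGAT

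Promoters of 7 of the 10 genes were in the same RefSeq table (Chil3, Fcer1g, Plac8, Itgam, Ccr2, Lyz2 and Cd68). Letters were searched on both strands. The NFAT core GGAAA was found in all 7, and in 61.3% of the 32851 promoters of the table. The Chil3 window held 1 match to it, at position -53 from the start. The PU.1 core GAGGAA was found in 3 of the 7 and in 28.3% of all promoters, and it can overlap the NFAT core. The Chil3 window held no match to it, and the Chil4 window likewise none. The C/EBP pattern TTNCNNAA was found in 6 of the 7 and in 40.7% of all promoters, and 3 times each in the Chil3 and Chil4 windows. The spaced STAT6 palindrome and the AP-1 pattern TGANTCA were each found in 1 of the 7, and in 6.95% and 7.81% of all promoters.

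Chil1, another chitinase-like gene, was at 0.266, 0.406 and 0.692 CPM with saline and at 0.258, 0 and 0.0947 CPM with tacrolimus (adjusted p = 0.413, edgeR). Retnla, a secreted protein that is often used beside Chil3 as a mark of alternative activation, had 0 counts in every library. Arg1, which encodes arginase 1, stood at 2.15, 2.21 and 1.46 CPM with saline and 1.79, 0.759 and 1.35 CPM with tacrolimus, and the groups overlapped (log2 fold change -0.58 ± 0.38, SE; adjusted p = 0.473, edgeR). Mrc1, the mannose receptor, was at 2.49 to 3.82 CPM with saline and 3.60 to 5.73 CPM with tacrolimus (adjusted p = 0.423, edgeR). The interleukin 4 receptor chain Il4ra was at 22.8 to 38.6 CPM with saline and 20.6 to 23.1 CPM with tacrolimus (adjusted p = 0.393, edgeR). Of the 14 tested genes of the alternative activation list, 11 had the lower group level under tacrolimus, the median log2 fold change being -0.32. Among the 14 tested genes Chil1 alone kept the groups apart, against 21.8% of all genes tested. It did so narrowly, with 11 counts in both saline replicate 1 and tacrolimus replicate 1.

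Cd14, the co-receptor that hands bacterial lipopolysaccharide to the TLR4 and MD-2 complex, had the widest range of the 10 genes. It stood at 11.3, 42.5 and 86.5 CPM in saline replicates 1 to 3 and at 7.68, 10.0 and 7.74 CPM in tacrolimus replicates 1 to 3. The groups did not overlap, but saline replicate 1 was near the tacrolimus libraries, with 467 counts against 327 to 423. The means were 46.8 ± 37.8 CPM with saline and 8.48 ± 1.34 CPM with tacrolimus (SD, n = 3 each). The log2 fold change was -2.46 ± 0.66 (SE), and it was -1.66 without saline replicate 3 and -2.92 without saline replicate 1. Within the saline group the highest library was 7.65 times the lowest.

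The partners of Cd14 differed among themselves. Tlr4 stood at 5.71, 3.38 and 0.430 CPM with saline and at 5.24, 7.16 and 6.98 CPM with tacrolimus, so that it was lowest where Cd14 was highest (log2 fold change 1.03 ± 0.75, SE; adjusted p = 0.509, edgeR). Ly96, which encodes MD-2, was at 3.24, 4.04 and 4.85 CPM in saline replicates 1 to 3 and 3.13 to 3.62 CPM with tacrolimus (adjusted p = 0.543, edgeR). The adaptor gene Myd88 was at 20.1, 28.5 and 34.1 CPM with saline and 18.0 to 19.8 CPM with tacrolimus, without overlap and, like Cd14, with saline replicate 1 the lowest of its group (log2 fold change -0.54 ± 0.20, SE; adjusted p = 0.393, edgeR). Ly86, which encodes the MD-1 partner of CD180, a homologue of TLR4, was at 0.531 ± 0.196 CPM with saline and 1.20 ± 0.223 CPM with tacrolimus (SD, n = 3 each; adjusted p = 0.392, edgeR). Of the 20 tested genes of endotoxin recognition, 11 were lower and 9 higher under tacrolimus, the median log2 fold change being -0.04.

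Cd68 encodes a heavily glycosylated protein of late endosomes and lysosomes, abundant in macrophages. It stood at 12.0, 20.8 and 34.8 CPM in saline replicates 1 to 3 and at 7.05, 9.62 and 11.9 CPM in tacrolimus replicates 1 to 3. Its lowest saline library and its highest tacrolimus library were almost level, and on the deposited FPKM scale they changed places, at 9.53 and 9.54 FPKM. Cd68 thus kept the groups apart in CPM only, while Chil3 and Cd14 did so on either scale. The means were 22.5 ± 11.5 CPM with saline and 9.53 ± 2.44 CPM with tacrolimus (SD, n = 3 each), and the log2 fold change was -1.24 ± 0.40 (SE). It was -0.78 without saline replicate 3.

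Cd14 and Cd68 were lowest, among the saline libraries, in replicate 1, as were the summed levels of tubular injury and neutrophil genes. The part of these cells in either result was not tested. Among 19 tested markers of injured tubule all 19 had the lower level with tacrolimus, and their summed level was 8295, 32139 and 31867 CPM in saline replicates 1 to 3 and 2902 to 8146 CPM with tacrolimus. That sum came mostly from 1 gene. The median of the list relative to the 6-library mean was -0.18, 0.92 and 1.38 (log2) with saline and -0.99 to -0.35 with tacrolimus. Lcn2, which encodes NGAL, a product of injured tubules and neutrophils, stood at 77.0, 517 and 2599 CPM with saline and 31.4 to 72.2 CPM with tacrolimus (adjusted p = 0.392, edgeR). Among 21 neutrophil markers 10 were tested, and all 10 had the lower group level under tacrolimus (median log2 fold change -2.28). Without saline replicate 1, edgeR called 8 of 12 tested neutrophil markers and 13 of 19 injured tubule markers lower, against 6.16% of all genes. That library was left out after its values had been seen, low injury transcripts among them, so nothing is read from these counts. Without Lcn2, the summed level of the other 20 neutrophil markers was 12.7, 33.4 and 51.3 CPM in saline replicates 1 to 3 and 5.58 to 8.27 CPM with tacrolimus. Of the neutrophil list, Ly6g, Mpo and Elane were at 0 in all 6 libraries. In contrast, S100a8 was at 1.94, 3.88 and 9.48 CPM with saline and 0.876 to 1.04 CPM with tacrolimus (adjusted p = 0.392, edgeR). S100a9, the other calprotectin subunit, was at 3.56, 9.60 and 13.6 CPM with saline and 1.28 to 2.70 CPM with tacrolimus (adjusted p = 0.392, edgeR).

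The adaptors Tyrobp (DAP12) and Fcer1g (the common Fc receptor gamma chain) went the other way from Cd14 and Cd68 among the saline libraries. Tyrobp stood at 5.81, 4.67 and 3.49 CPM in saline replicates 1 to 3 and at 5.64, 4.84 and 6.93 CPM in tacrolimus replicates 1 to 3. The groups overlapped, with saline replicate 3 lowest and tacrolimus replicate 3 highest, and the log2 fold change was 0.32 ± 0.26 (SE). Fcer1g stood at 6.49, 3.55 and 3.32 CPM with saline and at 5.76, 6.16 and 7.69 CPM with tacrolimus. Here saline replicates 2 and 3 were below every tacrolimus library, while saline replicate 1 was among them, and the log2 fold change was 0.55 ± 0.31 (SE). It was 0.93 without saline replicate 1 and 0.38 without saline replicate 2. The means of Fcer1g were 4.45 ± 1.77 CPM with saline and 6.54 ± 1.02 CPM with tacrolimus (SD, n = 3 each).

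The ITAM list was mixed in direction, and it also holds inhibitory receptors and signaling genes that do not use these adaptors. Of 31 tested genes of the ITAM list, 14 were lower and 17 higher under tacrolimus, the median log2 fold change being 0.17. The activating Fc receptor gene Fcgr4 stood at 1.26, 2.03 and 2.41 CPM with saline and at 0.963, 0.996 and 0.899 CPM with tacrolimus, without overlap (log2 fold change -0.99 ± 0.33, SE; adjusted p = 0.392, edgeR). The inhibitory Fc receptor gene Fcgr2b was at 22.7, 22.4 and 11.1 CPM with saline and 23.2, 24.6 and 31.7 CPM with tacrolimus, also without overlap but on the other side (adjusted p = 0.437, edgeR). Fcgr1, the high-affinity receptor for immunoglobulin G, overlapped at 0.835 to 2.11 CPM with saline and 1.47 to 2.65 CPM with tacrolimus (adjusted p = 0.668, edgeR). Trem2, a lipid-sensing receptor that signals through Tyrobp, was at 0.286 to 1.55 CPM with saline and 0.166 to 0.987 CPM with tacrolimus (adjusted p = 0.940, edgeR). The Src-family kinase gene Fgr was at 2.93 ± 1.18 CPM with saline and 1.86 ± 0.465 CPM with tacrolimus (SD, n = 3 each; adjusted p = 0.434, edgeR).

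Ccr2, Plac8 and Msr1 had no difference between the group means beyond the spread. Over the 6 libraries their profiles lay 0.19 to 0.28 (log2, root mean square) apart, while each gene itself varied by 0.44 to 0.51. Ccr2, the receptor for the monocyte chemoattractant CCL2, stood at 4.16, 3.63 and 1.77 CPM with saline and at 1.97, 2.92 and 4.54 CPM with tacrolimus. The lowest values were those of saline replicate 3 and tacrolimus replicate 1, and the log2 fold change was -0.02 ± 0.43 (SE). Plac8, a small cysteine-rich protein of myeloid and lymphoid cells, stood at 10.3, 12.3 and 5.18 CPM with saline and at 6.63, 9.24 and 11.1 CPM with tacrolimus. The same libraries were lowest, and the log2 fold change was -0.04 ± 0.35 (SE). Msr1, the class A scavenger receptor that takes up modified lipoproteins, stood at 3.17, 3.45 and 1.53 CPM with saline and at 2.28, 1.83 and 3.27 CPM with tacrolimus (log2 fold change -0.14 ± 0.39, SE). Each of the 3 signs depended on which library was left out.

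Among the other genes of the CCR2 axis, 2 of the 13 tested kept the groups apart, Ccr1 and Ccl5, against 21.8% of all genes tested. Ccl2, the main CCR2 ligand, was at 3.41, 3.02 and 0.454 CPM with saline and at 1.13, 1.19 and 3.67 CPM with tacrolimus, low in the same libraries as Ccr2 (adjusted p = 0.908, edgeR). Ccr1, a receptor for several inflammatory chemokines, stood at 2.30, 7.03 and 3.03 CPM with saline and at 0.611, 1.14 and 1.94 CPM with tacrolimus, without overlap (log2 fold change -1.74 ± 0.58, SE; adjusted p = 0.392, edgeR). Ccl5, a T cell and monocyte chemoattractant, was at 2.25 ± 2.07 CPM with saline and 0.544 ± 0.241 CPM with tacrolimus (SD, n = 3 each; adjusted p = 0.392, edgeR). Of the 13 tested genes of this list 7 were lower and 6 higher. Ly6c2, a surface marker of inflammatory monocytes, was at 1.42 to 1.91 CPM with saline and 1.04 to 1.55 CPM with tacrolimus (log2 fold change -0.45 ± 0.29, SE; adjusted p = 0.463, edgeR). Of 19 tested monocyte genes 10 were lower and 9 higher, with a median log2 fold change of -0.06.

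Itgam encodes CD11b, which pairs with the beta-2 chain Itgb2 to form the complement receptor Mac-1. It stood at 2.08, 2.95 and 4.01 CPM with saline and at 1.17, 5.95 and 6.44 CPM with tacrolimus. Tacrolimus replicate 1 was the lowest of all 6 libraries and tacrolimus replicates 2 and 3 the highest, a range of 5.48-fold within 1 group. The log2 fold change was 0.58 ± 0.61 (SE). Itgam lies on the plus strand of chromosome 7 of GRCm39 from 127661812 to 127717663, and a second protein-coding model, Gm49368, runs on the same strand from 127661855 to 127727332. The 2 models share nearly all of the Itgam locus, so the count of each depends on how shared reads were assigned.

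Reads were divided unevenly between the 2 models. Gm49368 held 118, 128 and 105 counts with saline and 121 in tacrolimus replicate 1, but 0 in tacrolimus replicates 2 and 3. Itgam held 86, 116, 168 and 50 counts in the same first 4 libraries and 251 and 272 in the last 2. Summed, the locus stood at 4.94, 6.20 and 6.52 CPM with saline and at 4.02, 5.95 and 6.44 CPM with tacrolimus, so the groups overlapped closely. The means of the sum were 5.88 ± 0.834 and 5.47 ± 1.28 CPM (SD, n = 3 each), and its log2 fold change was -0.11 ± 0.24 (SE). This sum was chosen after the values had been seen. The sign of the Itgam row alone was not that of the sum, and neither value exceeded its SE. Gm49368 runs past the end of Itgam, so the sum can hold reads from outside Itgam. Itgb2 stood at 8.28, 4.27 and 3.49 CPM with saline and at 5.05, 6.71 and 8.12 CPM with tacrolimus, with overlap (adjusted p = 0.676, edgeR). Of 18 tested genes of leukocyte integrins and adhesion, 7 were lower and 11 higher.

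Lyz2, the lysozyme of macrophages and neutrophils, had the highest median of the 10 genes per length over the 6 libraries. It stood at 51.2, 28.9 and 8.31 CPM in saline replicates 1 to 3 and at 42.8, 40.0 and 36.6 CPM in tacrolimus replicates 1 to 3. The tacrolimus libraries were close to each other, at most 1.17-fold apart, while the saline libraries were 6.16-fold apart and held the highest and the lowest value. The log2 fold change was 0.43 ± 0.56 (SE). It was 1.10 without saline replicate 1 and -0.01 without saline replicate 3. The paralogue Lyz1 is 95.1% identical over 447 coding bases but held almost no reads, with at most 0.0947 CPM in any library.

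Per length, the 10 genes covered a wide range of levels. Lyz2 had a median of 29.2 FPKM over the 6 libraries, Cd68 9.53, Tyrobp 7.87, Fcer1g 6.83, Cd14 6.17, Plac8 6.14 and Chil3 2.65 FPKM. Itgam, Ccr2 and Msr1 were lowest, with medians of 0.688, 0.484 and 0.430 FPKM. In this order the ranges of Cd68, Tyrobp, Fcer1g, Cd14 and Plac8 overlapped each other. In saline replicate 2 Cd14 (24.5 FPKM) exceeded Lyz2 (21.9 FPKM), and the saline mean of Cd14 (26.8 FPKM) was above that of Lyz2 (22.4 FPKM). In saline replicate 3 both Cd14 (49.5 FPKM) and Cd68 (27.4 FPKM) exceeded Lyz2 (6.26 FPKM). In every tacrolimus library Lyz2 (28.0 to 32.5 FPKM) was the highest of the 10, above Cd14 (4.44 to 5.81 FPKM).

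**Figure D2:**
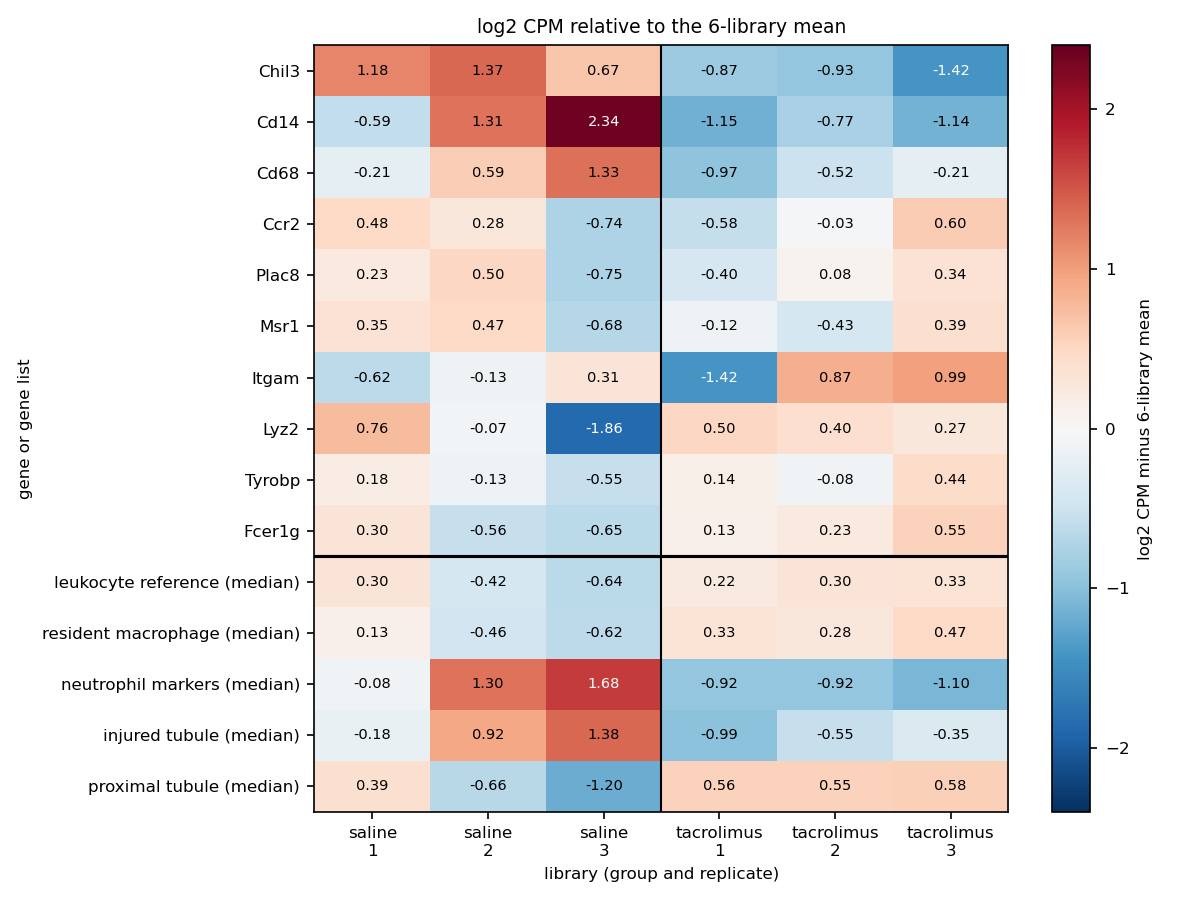
Each cell gives the log2 CPM of a gene, or the median over a gene list, relative to its mean over the 6 libraries, with columns for the libraries. Red is above and blue below the mean. Chil3 is above its mean in all 3 saline libraries (0.67 to 1.37), Cd14 and Cd68 resemble the injured tubule and neutrophil medians, and Fcer1g resembles the leukocyte median.

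Genes most like each member were sought among the 275 other tested genes of all lists, members included, by the root-mean-square difference of log2 CPM centred on the 6-library mean. Among the genes near to Chil3 were the neutrophil chemokine receptor gene Cxcr2 (0.45) and the epithelial injury gene Sprr1a (0.52), neither of them close against the 1.11 that Chil3 itself varied. Cd14 was nearest to the neutrophil collagenase gene Mmp8 (0.22) and to S100a8 (0.28). Cd68 was nearest to Hbegf (0.17), Krt18 (0.19) and S100a11 (0.21), all from the injured tubule list. Fcer1g was nearest to Ptprc (0.07), the pan-leukocyte gene for CD45, and Tyrobp to the leukocyte genes Cytip (0.14), Ptpn6 (0.15) and Fyb (0.15). Ccr2 and Plac8 were nearest to each other (0.19). Lyz2 was nearest to the lectin receptor genes Clec5a and Clec7a (0.20 each) and, almost as near, to the proximal tubule gene Cubn (0.22). These distances rest on 6 libraries that share their scaling, and are descriptions.

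Leukocyte genes as a whole were not lower with tacrolimus. Of 18 tested reference genes of leukocytes, 17 had the higher group level under tacrolimus (median log2 fold change 0.46). Their summed level was 300, 235 and 214 CPM in saline replicates 1 to 3 and 302 to 324 CPM with tacrolimus. Cyba alone made up most of that sum, at 162, 138 and 138 CPM with saline and 168 to 179 CPM with tacrolimus. Ptprc stood at 7.43, 3.96 and 3.56 CPM with saline and at 6.85 to 8.61 CPM with tacrolimus (adjusted p = 0.418, edgeR). Of 16 tested resident macrophage genes 15 had the higher group level under tacrolimus (median 0.68). Proximal tubule genes moved with these lists. Of 18, 17 had the higher group level under tacrolimus (median 0.91), 8 of them without overlap, against 21.8% of all genes tested. In log2 CPM relative to the 6-library mean, the proximal tubule median stood at 0.39, -0.66 and -1.20 with saline, replicate 1 being the highest. With tacrolimus it stood at 0.55 to 0.58. The part of the proximal tubule genes in the leukocyte result was not tested. Erythroid and platelet genes summed to 421, 119.9 and 1489 CPM with saline and to 607 to 2547 CPM with tacrolimus, and the groups overlapped. Among the resident macrophage genes Adgre1 (F4/80) was at 4.82, 1.22 and 0.286 CPM with saline and at 4.25, 6.71 and 6.01 CPM with tacrolimus (adjusted p = 0.442, edgeR). Csf1r, the macrophage growth factor receptor, was at 34.4, 12.2 and 12.0 CPM with saline and 32.0 to 35.4 CPM with tacrolimus (adjusted p = 0.423, edgeR).

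Each member was therefore also set against the mean log2 CPM of the 18 leukocyte genes in its own library. On this log2 scale Chil3 stood at 0.62, 1.47 and 1.03 in saline replicates 1 to 3 and at -1.39, -1.62 and -2.12 with tacrolimus. The groups did not overlap, and the difference was -2.75. Relative to its 6-library mean, the reference itself stood at 0.24, -0.42 and -0.69 with saline and 0.18 to 0.35 with tacrolimus. The ratio therefore shifts the difference of every member downward alike. Nothing is read from the difference of Chil3 being larger in size here than in CPM. Cd14 stood at 0.90, 3.47 and 4.77 with saline and 0.25 to 0.63 with tacrolimus, and Cd68 at 0.99, 2.44 and 3.45 against 0.28 to 0.87. Both again kept the groups apart, with saline replicate 1 near the tacrolimus libraries. Fcer1g stayed between -0.11 and 0.24 in all 6 libraries, so it followed the leukocyte genes. Tyrobp ranged more widely, between -0.43 and 0.29. Ccr2, Msr1 and Plac8 overlapped, with differences of -0.59, -0.68 and -0.57, and Lyz2 overlapped with a difference of 0.20.

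**Figure D3:**
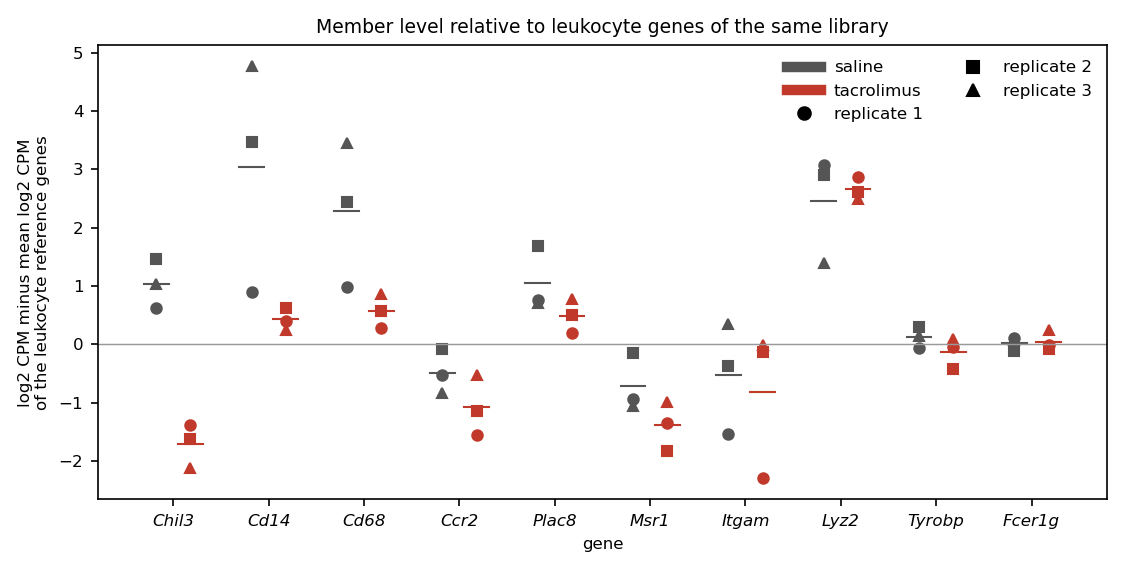
Level of each of the 10 genes relative to 18 leukocyte genes of the same library, as log2 CPM minus their mean log2 CPM. Symbols are libraries and short lines are means of 3. Chil3 is above 0 in every saline library and below -1.3 in every tacrolimus library, while Fcer1g and Tyrobp lie near 0 in all.

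Lists of genes related to the members were compared with the same fit. Of 345 listed genes other than the members 266 were tested, and edgeR called 0 of them, against 0.0114% of all genes tested. At an unadjusted p under 0.05 there were 38 lower and 21 higher, against 7.72% and 4.94% of all genes tested. DESeq2 called 23 of the 266, against 1.96% of all genes, and limma on FPKM 0. The lists were chosen with earlier results of these data known, so nothing is read from these counts. Classical activation genes were lower in 8 and higher in 10 of 18. Without overlap, 6 were lower and 3 higher, against 21.8% of all genes tested in either direction. The 3 higher were Cd86, Cd40 and Casp1. Cd86 was at 0.547 ± 0.0884 CPM with saline and 1.13 ± 0.0993 CPM with tacrolimus (SD, n = 3 each; adjusted p = 0.392, edgeR). Cxcl10 encodes an interferon-induced chemokine. It was at 6.83, 13.3 and 8.59 CPM with saline and 2.77, 3.96 and 4.80 CPM with tacrolimus (adjusted p = 0.392, edgeR). Socs3, a feedback inhibitor of cytokine signaling, was at 11.7, 32.6 and 59.0 CPM with saline and 3.43 to 8.50 CPM with tacrolimus (adjusted p = 0.392, edgeR). The transcription factor gene Irf1 was at 15.2 to 20.4 CPM with saline and 11.2 to 12.8 CPM with tacrolimus, without overlap (adjusted p = 0.392, edgeR). The cytokine genes Il1b and Tnf were at 1.26 CPM or less in every library and overlapped. Il6, also low, did not overlap, at 10, 11 and 19 counts with saline and 0, 3 and 0 counts with tacrolimus (adjusted p = 0.392, edgeR).

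Scavenger and lysosomal genes were lower in 11 and higher in 14 of 25, with a median log2 fold change of 0.00. Lgals3, which encodes the sugar-binding galectin 3, stood at 82.7, 105 and 143 CPM with saline and at 49.6, 62.0 and 71.1 CPM with tacrolimus, without overlap (log2 fold change -0.85 ± 0.23, SE; adjusted p = 0.392, edgeR). The protease gene Ctsd was at 1218 ± 397 CPM with saline and 692 ± 59.2 CPM with tacrolimus (SD, n = 3 each; adjusted p = 0.392, edgeR). Of 12 tested markers of dendritic cells, antigen-presenting genes among them, 10 had the higher group level under tacrolimus (median 0.89). Of 9 tested genes of the drug's target pathway 6 were lower and 3 higher with tacrolimus. Without saline replicate 1 edgeR called 1 of the 9 lower, against 6.16% of all genes, and nothing is read from that count. Rcan1, a feedback regulator of calcineurin, stood at 111, 200.4 and 199 CPM with saline and at 83.5, 120.0 and 121 CPM with tacrolimus, with overlap (log2 fold change -0.66 ± 0.27, SE; unadjusted p = 0.0464, adjusted p = 0.393, edgeR). Fkbp1a (FKBP12) was at 53.2 to 108 CPM with saline and 44.0 to 115 CPM with tacrolimus (adjusted p = 0.915, edgeR). Ppp3ca, a calcineurin catalytic subunit, was at 62.4 to 81.3 CPM with saline and 57.8 to 70.4 CPM with tacrolimus (adjusted p = 0.649, edgeR).

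**Figure D4:**
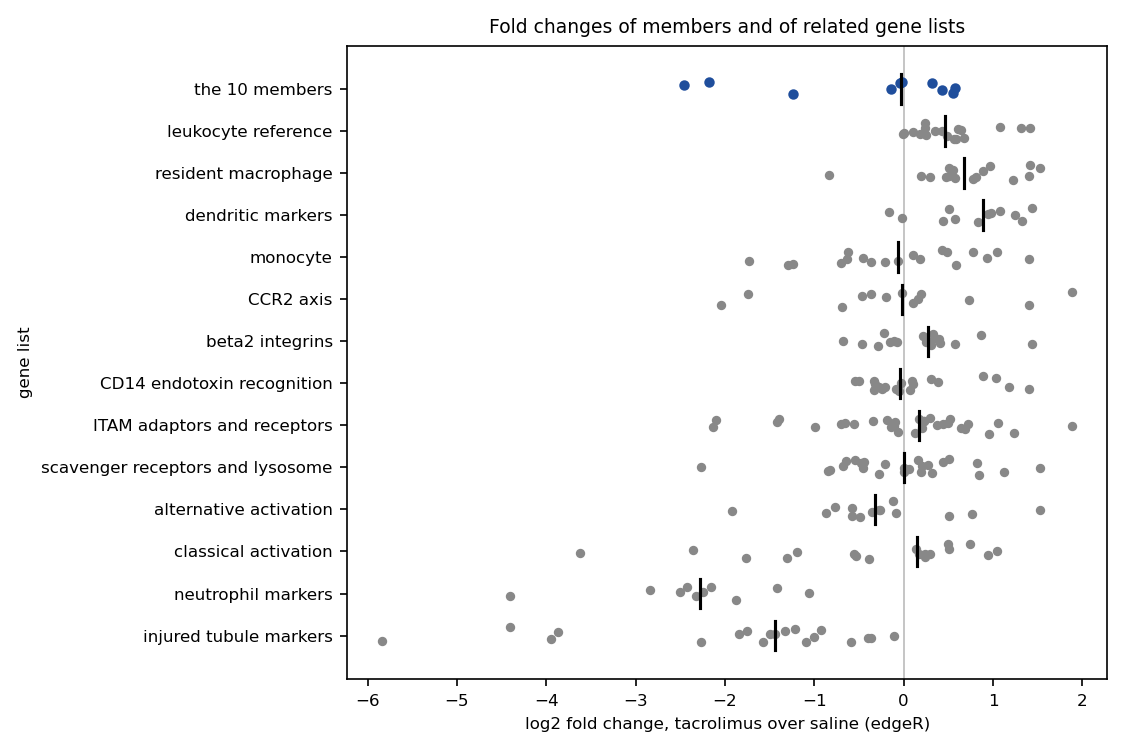
Log2 fold change, tacrolimus over saline, of each tested gene in the 10 members and 13 related lists, with a vertical line at the median of each list. Values below 0 are lower with tacrolimus. Chil3, Cd14 and Cd68 are the 3 members at the left (-2.46 to -1.24), the neutrophil and injured tubule lists lie wholly below 0, and the leukocyte median is 0.46.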

How the data were processed

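The authors deposited 1 table that holds, for every gene and library, unnormalized whole-number counts and FPKM values, per the file headers. Per the submitters' processing notes the build was GRCm39. Aligner, counter, annotation release and strand use: not given in the sources used here, so shared reads of overlapping or paralogous genes are uncertain.

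Groups and replicate numbers came from the sample titles. Each gene was matched by its symbol. Counts were fitted with edgeR 4.0.16 in R 4.3.3 (filterByExpr with minimum count 10 and minimum total 15, TMM, robust glmQLFit, glmQLFTest) over 17557 genes, with Benjamini-Hochberg adjustment and a threshold of 0.05. SEs were derived as the size of the log2 fold change over the root of F. CPM used TMM-scaled totals. Centred log2 CPM used a prior count of 2, and ratios to leukocyte genes an offset of 0.01 CPM. FPKM served to compare levels between genes. The members and the 18 lists were chosen with earlier results of these data known. Named genes were the members, up to 3 tested genes per list, by smallest unadjusted p at 1 CPM or more in the higher group, and genes fixed by name. Others (Chil1, Fcgr2b, Chil4, Lyz1, Gm49368, Il1b, Tnf, Il6, Cyba, Cd86, Cd40, Casp1) were chosen after their values were seen. Alternatives were DESeq2 1.42.0, limma 3.58.1 on log2(FPKM + 0.1) or log2(FPKM + 1), other scalings and filters, a replicate block, and leaving out each library. The fit was checked on simulated counts. No replicates agreed within sampling noise. For low genes, counting error adds to the spread between libraries. The result for 1 gene that the rule names is not reported here.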

Additional observations from a re-analysis of the deposited data

How the results depend on the processing

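The 2 genes called over all genes became 344 with DESeq2 and 1 with limma on either FPKM scale. No shared deviation of same-numbered libraries was seen. Their deviation correlations were -0.023, -0.0095 and -0.047, against -0.13 to 0.14 for the other pairs. With so few libraries this cannot show whether the replicate numbers pair the samples. The replicate block called 1 gene. Leaving out 1 library gave 0 to 2534 called genes, with 2534 without saline replicate 1. The number of members with the lower group level was 6, and 3 to 7 when 1 library was left out, with 3 without saline replicate 2. The other settings gave 5 or 6. Chil3 kept its direction under all 14 alternatives, from -2.36 to -1.53, the last with log2(FPKM + 1), which understates changes of low genes. Cd14 (-2.92 to -1.66) and Cd68 (-1.54 to -0.78) kept theirs too, as did Tyrobp (0.15 to 0.51) and Fcer1g (0.38 to 0.93). The sign turned in 5 of 14 alternatives for Plac8, 4 for Ccr2, 2 for Msr1 and 1 for Lyz2. Relative to leukocyte genes, Chil3 differed by -2.96 to -2.54 when 1 library was left out, and by -2.73 to -2.63 with 4 reference genes or with FPKM. There the sign turned in 2 of 8 alternatives for Itgam and Fcer1g and in 1 for Lyz2. The Itgam value turned from 0.58 to -0.11 when Gm49368 counts were added, an alternative chosen after seeing the data.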
